A study of Homo sapiens with 30 samples.

Results

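Myocardin (MYOCD), its partner serum response factor (SRF) and 8 genes of the smooth muscle contractile apparatus, ACTA2, ACTG2, TAGLN, CNN1, CALD1, MYL9, TPM1 and TPM2, were followed across 6 groups of human osteosarcoma cells. The 10 genes were chosen by name, 1 row each, from the 57373 genes of the deposited count table, and 9 of them passed the filter on low counts (ACTG2 did not). The cells were U2OS, an established line from a bone tumour, and the study asked how the transcription factor FOXP2 and the Wnt pathway, which acts through β-catenin, act together. Mock-transfected cells served as the control. A second group received CHIR99021 (CHIR) at 5 µM, an inhibitor of the kinase GSK3 that activates Wnt signalling, from 72 h before the time of transfection. Cells transfected for 48 h with 500 ng of a plasmid for wild-type FOXP2 formed the third group, and cells given a FOXP2 that lacks residues 264 to 272 (dhelix) the fourth. The last groups combined wild-type or dhelix FOXP2 with the same CHIR treatment. Each group held 5 libraries, named biological replicates in the labels. All FOXP2 came from transfected plasmids in 1 tumour line. The labels do not say whether the mock cells received an empty plasmid or whether the cells given CHIR alone were mock-transfected, so the presence of plasmid DNA and that of FOXP2 cannot be told apart.

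Myocardin is a coactivator that binds SRF and drives the smooth muscle programme. SRF itself sits on a short DNA element, the CArG box, and takes turns between partners: the myocardin family (myocardin, MKL1 and MKL2) directs it to cytoskeletal and contractile genes, and the ternary complex factors (the ELK proteins) direct it to immediate early genes such as FOS and EGR1. The contractile genes include smooth muscle actins, proteins that bind actin and tune the motor, a myosin light chain and tropomyosins, the rods that lie along the actin filament. Several of them, TPM1, TPM2, CALD1 and MYL9 among them, are also used by the cytoskeleton of cells that are not muscle.

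The CArG box (CC, then 6 bases that are each A or T, then GG, which reads as the same pattern on both strands) was searched for in RefSeq promoter windows of GRCh38.p14, from 250 bases before to 50 after each gene start. A form with 1 departure was one with a single C or G among the 6 inner bases. Departures in the CC or GG ends were not searched for. The search covered 35116 windows of 300 bases, of which 1.29% held a CArG box and 8.13% held a CArG box or a form with 1 such departure. The members had 13 windows for 7 genes, of which 2 held a CArG box and 4 held it or a form with 1 departure. The 7 genes did not include MYOCD, TAGLN and MYL9, which were not searched. SRF and ACTG2 were the genes with a full CArG box among the 7. The SRF and ACTA2 promoters are shown because SRF is the factor that binds this element and ACTA2 is one of its classical targets. Each runs from 250 bases to 1 base before the start, 5′ to 3′ on the strand of the gene, with capitals for CArG boxes in SRF and for forms with 1 departure in ACTA2.
SRF, chr6:43171019-43171268, plus strand: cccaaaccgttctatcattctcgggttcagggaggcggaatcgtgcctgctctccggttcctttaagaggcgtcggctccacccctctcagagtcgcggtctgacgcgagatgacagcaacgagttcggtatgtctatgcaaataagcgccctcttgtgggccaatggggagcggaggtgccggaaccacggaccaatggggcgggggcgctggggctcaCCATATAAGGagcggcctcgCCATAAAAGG
ACTA2, chr10:88952774-88953023, minus strand: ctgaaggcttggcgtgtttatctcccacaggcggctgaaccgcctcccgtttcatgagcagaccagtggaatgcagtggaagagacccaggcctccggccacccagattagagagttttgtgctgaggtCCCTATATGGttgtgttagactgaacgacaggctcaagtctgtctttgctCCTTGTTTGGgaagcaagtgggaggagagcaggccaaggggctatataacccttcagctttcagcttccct
The SRF matches lie 30 to 21 and 10 to 1 bases before the start, and those of ACTA2 lie 121 to 112 and 71 to 62 bases before it. ACTG2 held CCTTATATGG at 110 to 101 bases and CCTTTTTAGG at 73 to 64 bases before its start on chromosome 2. CALD1 held CCTAAAGAGG, a form with 1 departure, 26 to 17 bases before a start on chromosome 7. Of other motifs, CTTTGAT, the element of the TCF/LEF factors that carry β-catenin, was in 2.62% of all windows and in 0 of the 13 member windows on either strand. The forkhead element TGTTTAC was in 3.42% of all windows and in 2 of the 13 member windows, 1 each of ACTA2 and CALD1. A match is a description of letters and does not show that a factor binds there, and its absence says only that these letters are not in the window.

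Total counts ran from 15755842 to 29466652 per library, and 18485 genes were tested. Levels are given as CPM, the count of a gene scaled to a common library size, on library sizes scaled by the trimmed mean of M values, over 5 libraries per group, and changes as log2 fold changes ± SE from edgeR's quasi-likelihood test with Benjamini-Hochberg adjustment over all genes tested. FOXP2 stood at 0.249 to 1.33 CPM in the libraries without its plasmid and at 4655 to 16321 CPM in those with it. FOXP2 was at 5906 to 7806 CPM with wild-type FOXP2 and at 14041 to 16321 CPM with wild-type FOXP2 and CHIR, so CHIR also went with more of the transfected transcript. AXIN2, a Wnt target, averaged 21.0 CPM in mock cells and 145 CPM with CHIR. CHIR replicate 1 lay furthest from the other libraries of its group, and dhelix FOXP2 replicate 5 and wild-type FOXP2 with CHIR replicate 4 also stood apart from theirs. In bulk RNA, fewer cells with a transcript and less transcript per cell cannot be told apart.

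The name of the gene set was checked against 7 defining smooth muscle markers. SMTN (smoothelin) made up nearly all of their sum, which was 124 to 141 CPM in mock cells and 281 to 338 CPM with wild-type FOXP2. MYH11, the smooth muscle myosin heavy chain, stayed at 0.0633 to 0.629 CPM in the 6 group means, and 5 or 6 of the 7 markers were under 1 CPM in every group. The members are therefore described as genes, and no smooth muscle cell type is read from them.

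MYOCD (ENSG00000141052) was expressed in mock cells and was close to absent in every other group. Mock libraries held 35.9, 32.6, 34.0, 33.9 and 33.2 CPM, from 739, 666, 1030, 569 and 575 counts. The 5 CHIR libraries held 1, 2, 1, 0 and 1 counts, and the wild-type FOXP2 libraries 2, 2, 3, 1 and 4 counts. With dhelix FOXP2 the counts were 1, 7, 2, 6 and 6. No library outside the mock group reached 1 CPM, and the mock group did not overlap any of them. Pooled over libraries, MYOCD was 607-fold lower with CHIR than in mock cells, with a 95% interval from counting error alone of 260 to 1870. With wild-type FOXP2 it was 289-fold lower (165 to 560), and with dhelix FOXP2 205-fold lower (135 to 328). The fitted changes were −9.10 ± 0.18 for CHIR, −8.10 ± 0.16 for wild-type and −7.63 ± 0.14 for dhelix FOXP2 against mock (edgeR adjusted p = 3.6e-32, 8.1e-33 and 2.1e-33). Each of the 3 comparisons uses the same 5 mock libraries.

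**Figure D1:**
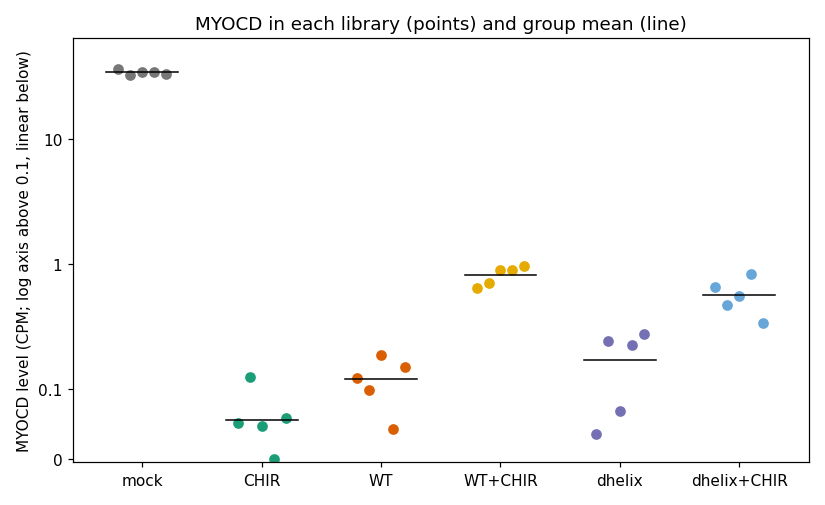
MYOCD level in CPM (vertical axis, logarithmic above 0.1 and linear below it) in each of 30 libraries, by group, with a line at each group mean. The 5 mock libraries sit between 32.6 and 35.9 CPM, and all 25 others lie under 1 CPM.

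Among the low groups, the combinations of FOXP2 with CHIR held more MYOCD than either treatment alone. The libraries with wild-type FOXP2 and CHIR held 16, 15, 17, 16 and 17 counts (0.649, 0.711, 0.896, 0.892 and 0.969 CPM). Those with dhelix FOXP2 and CHIR held 13, 8, 9, 15 and 6 counts (0.654, 0.469, 0.559, 0.827 and 0.338 CPM). Neither combination overlapped the groups with CHIR alone, wild-type FOXP2 alone or dhelix FOXP2 alone. Against CHIR alone, MYOCD rose by 3.72 ± 0.41 with wild-type and by 3.22 ± 0.45 with dhelix FOXP2 (edgeR adjusted p = 2.7e-10 and 7e-08), and the pooled count ratios were 14.5 (counting interval 5.95 to 45.7) and 10.2 (4.12 to 32.9). These ratios start from 5 counts in the whole CHIR group. The combination of wild-type FOXP2 and CHIR was still 41.2-fold below mock, on group means. The 2 combinations overlapped, as did the groups with CHIR, wild-type FOXP2 and dhelix FOXP2 alone, so the order of levels was mock, then the combinations, then the single treatments.

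SRF (ENSG00000112658) did not follow MYOCD: it was highest in the groups with FOXP2. Mock libraries held 59.9, 57.6, 61.7, 61.6 and 60.0 CPM and CHIR libraries 35.0, 49.4, 53.4, 49.8 and 50.3 CPM. Wild-type FOXP2 libraries held 81.0, 83.6, 88.1, 88.5 and 81.8 CPM. All 5 wild-type FOXP2 libraries lay above all 5 mock libraries, which lay above all 5 CHIR libraries. SRF rose by 0.49 ± 0.06 with wild-type FOXP2 (edgeR adjusted p = 2.1e-09) and fell by 0.34 ± 0.06 with CHIR (adjusted p = 7.3e-06), a change of −0.28 when CHIR replicate 1 is left out. In cells with FOXP2, CHIR went with little difference in SRF: 86.2 ± 3.63 CPM (SD, n = 5) with wild-type FOXP2 and CHIR against 84.6 ± 3.49 CPM without CHIR, a change of 0.03 ± 0.06 that missed the threshold (adjusted p = 0.71).

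ACTA2 (ENSG00000107796), the smooth muscle α-actin, moved against SRF in the single treatments. It was a low transcript throughout, with 20 to 131 counts per library. Mock libraries held 3.26, 3.33, 3.07, 2.74 and 2.83 CPM, and CHIR libraries 4.11, 4.48, 5.05, 5.18 and 4.17 CPM. Wild-type FOXP2 libraries held 1.23, 1.45, 1.44, 1.38 and 1.27 CPM. These 3 groups did not overlap: CHIR was highest and wild-type FOXP2 lowest. ACTA2 rose by 0.59 ± 0.10 with CHIR (edgeR adjusted p = 3.3e-06) and fell by 1.18 ± 0.13 with wild-type FOXP2 (adjusted p = 8.7e-11). With wild-type FOXP2 and CHIR together it stood at 4.75, 5.03, 4.85, 4.96 and 4.79 CPM, and with dhelix FOXP2 and CHIR at 6.34, 6.57, 4.84, 7.22 and 5.63 CPM. ACTA2 in the combinations was thus in or above the range of CHIR alone, and CHIR raised it 3.60-fold in cells with wild-type FOXP2 (1.85 ± 0.12, adjusted p = 2.2e-16). Exons of ACTA2 overlap those of FAS and ACTA2-AS1 on the other strand, and the strand setting of the counting is not given in the sources used here, so a part of these low counts could belong to either gene.

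ACTG2 (ENSG00000163017), the enteric smooth muscle γ-actin, was at the limit of detection, with 0 to 8 counts per library and group means of 0.0565 to 0.283 CPM. The mock libraries held 6, 3, 5, 3 and 4 counts and those with wild-type FOXP2 6, 1, 7, 6 and 8. It was not tested for that reason. At this depth, a difference of ACTG2 between groups of so few counts is poorly measured.

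TAGLN (ENSG00000149591) encodes transgelin or SM22α, an actin-binding protein that is a standard readout of myocardin and SRF. It was highest where FOXP2 was present without CHIR. The mock libraries held 17.5, 17.1, 17.8, 20.0 and 20.0 CPM. The wild-type FOXP2 libraries held 63.7, 68.2, 71.5, 76.3 and 65.1 CPM, and the dhelix FOXP2 libraries 61.2, 63.5, 64.1, 63.1 and 66.9 CPM. TAGLN rose 3.75-fold with wild-type FOXP2 (1.91 ± 0.08, edgeR adjusted p = 1.8e-21) and 3.47-fold with dhelix FOXP2 (1.79 ± 0.08, adjusted p = 1e-20), in the groups in which MYOCD fell to a few counts. CHIR libraries held 9.86, 17.0, 14.0, 12.1 and 16.1 CPM, all below mock, and TAGLN fell by 0.42 ± 0.10 (adjusted p = 0.00019). Libraries with wild-type FOXP2 and CHIR held 22.6, 24.3, 29.0, 27.1 and 24.4 CPM, all under every library with wild-type FOXP2 alone and over every mock library. CHIR lowered TAGLN 2.71-fold in cells with wild-type FOXP2 (−1.44 ± 0.08, adjusted p = 1.4e-17). The group mean of wild-type FOXP2 was 4.99 times that of CHIR. TAGLN exons overlap those of PCSK7 on the other strand over 446 bases, a gene that reached 76.5 CPM, so the same doubt about strand holds.

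CNN1 (ENSG00000130176), basic calponin, which binds actin and restrains the myosin motor, was highest with CHIR alone. CHIR libraries held 15.4, 22.9, 20.4, 17.9 and 24.5 CPM against 10.5, 9.40, 9.14, 10.9 and 10.7 CPM in mock. The groups did not overlap, and CNN1 rose by 1.00 ± 0.10 with CHIR (edgeR adjusted p = 7.1e-12). With wild-type FOXP2 it stood at 11.7, 12.8, 13.9, 13.3 and 12.1 CPM, just above every mock library (0.34 ± 0.10, adjusted p = 0.0019). With dhelix FOXP2 it stood at 9.02, 11.4, 11.5, 11.0 and 10.6 CPM, across the mock range (0.09 ± 0.10, adjusted p = 0.39). In the presence of FOXP2 the CHIR level was lower: CNN1 averaged 15.6 ± 1.89 CPM with wild-type FOXP2 and CHIR and 10.4 ± 0.688 CPM with dhelix FOXP2 and CHIR (SD, n = 5), against 20.2 ± 3.70 CPM with CHIR alone.

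CALD1 (ENSG00000122786), caldesmon, which also holds back the actin and myosin interaction, was lower in every treated group than in mock cells. Mock libraries held 148 to 157 CPM, CHIR libraries 87.5 to 115 CPM and wild-type FOXP2 libraries 100.4 to 112 CPM. The libraries that combined either FOXP2 form with CHIR held 37.4 to 41.9 CPM, under all others. CALD1 fell by 0.69 ± 0.05 with CHIR and by 0.51 ± 0.05 with wild-type FOXP2 (edgeR adjusted p = 2.5e-15 and 4.4e-12), and by 1.44 ± 0.05 when CHIR was combined with wild-type FOXP2 rather than wild-type FOXP2 alone (adjusted p = 1.8e-23). CHIR replicate 1, at 115 CPM, was the highest of its group, and without it the change with CHIR was −0.81.

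MYL9 (ENSG00000101335), the regulatory light chain whose phosphorylation switches on the smooth muscle and nonmuscle myosin, had a like course. Its mock libraries held 69.9 to 78.0 CPM, CHIR libraries 22.7 to 36.9 CPM, wild-type FOXP2 libraries 35.9 to 38.9 CPM and dhelix FOXP2 libraries 33.1 to 35.1 CPM. No treated library reached the mock range. MYL9 fell by 1.29 ± 0.07 with CHIR and by 0.99 ± 0.07 with wild-type FOXP2 (edgeR adjusted p = 1.2e-18 and 7.6e-16). The combinations held 18.6 to 24.0 CPM, with 20.6 ± 1.22 CPM for wild-type and 22.5 ± 1.04 CPM for dhelix FOXP2 (SD, n = 5), groups that overlapped. CHIR lowered MYL9 by a change of −0.86 ± 0.08 in cells with wild-type and −0.59 ± 0.07 in cells with dhelix FOXP2 (adjusted p = 2e-12 and 1.3e-08).

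TPM1 (ENSG00000140416), the tropomyosin gene whose products include the smooth muscle α form, fell the most of the contractile genes. Mock libraries held 549, 593, 595, 574 and 587 CPM. CHIR libraries held 88.6, 96.3, 86.3, 84.7 and 109 CPM, and wild-type FOXP2 libraries 111, 99.8, 104, 96.6 and 105 CPM. The highest library outside the mock group held 117 CPM. TPM1 was 6.24-fold lower with CHIR (−2.64 ± 0.05, edgeR adjusted p = 3.2e-33), 5.62-fold lower with wild-type FOXP2 (−2.49 ± 0.05, adjusted p = 5.9e-33) and 5.22-fold lower with dhelix FOXP2 (−2.38 ± 0.05, adjusted p = 2e-32). With wild-type FOXP2 and CHIR it was lower again, at 42.0, 39.8, 41.1, 44.9 and 42.3 CPM. With dhelix FOXP2 and CHIR it stood at 51.6, 50.2, 49.5, 49.4 and 50.8 CPM, above each library with the wild-type form. The mock mean was 13.8 times the lowest group mean, the widest span of the members after MYOCD.

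TPM2 (ENSG00000198467), the β-tropomyosin gene, went the other way with FOXP2. Mock libraries held 204 to 227 CPM, CHIR libraries 148 to 178 CPM and wild-type FOXP2 libraries 345 to 377 CPM. TPM2 rose by 0.75 ± 0.04 with wild-type FOXP2 and fell by 0.39 ± 0.04 with CHIR (edgeR adjusted p = 4.4e-18 and 4.7e-10). So the tropomyosin genes parted under FOXP2, with TPM1 lower and TPM2 higher, while both were lower with CHIR. In the combinations TPM2 held 278 to 300 CPM with wild-type and 227 to 271 CPM with dhelix FOXP2, which did not overlap.

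**Figure D2:**
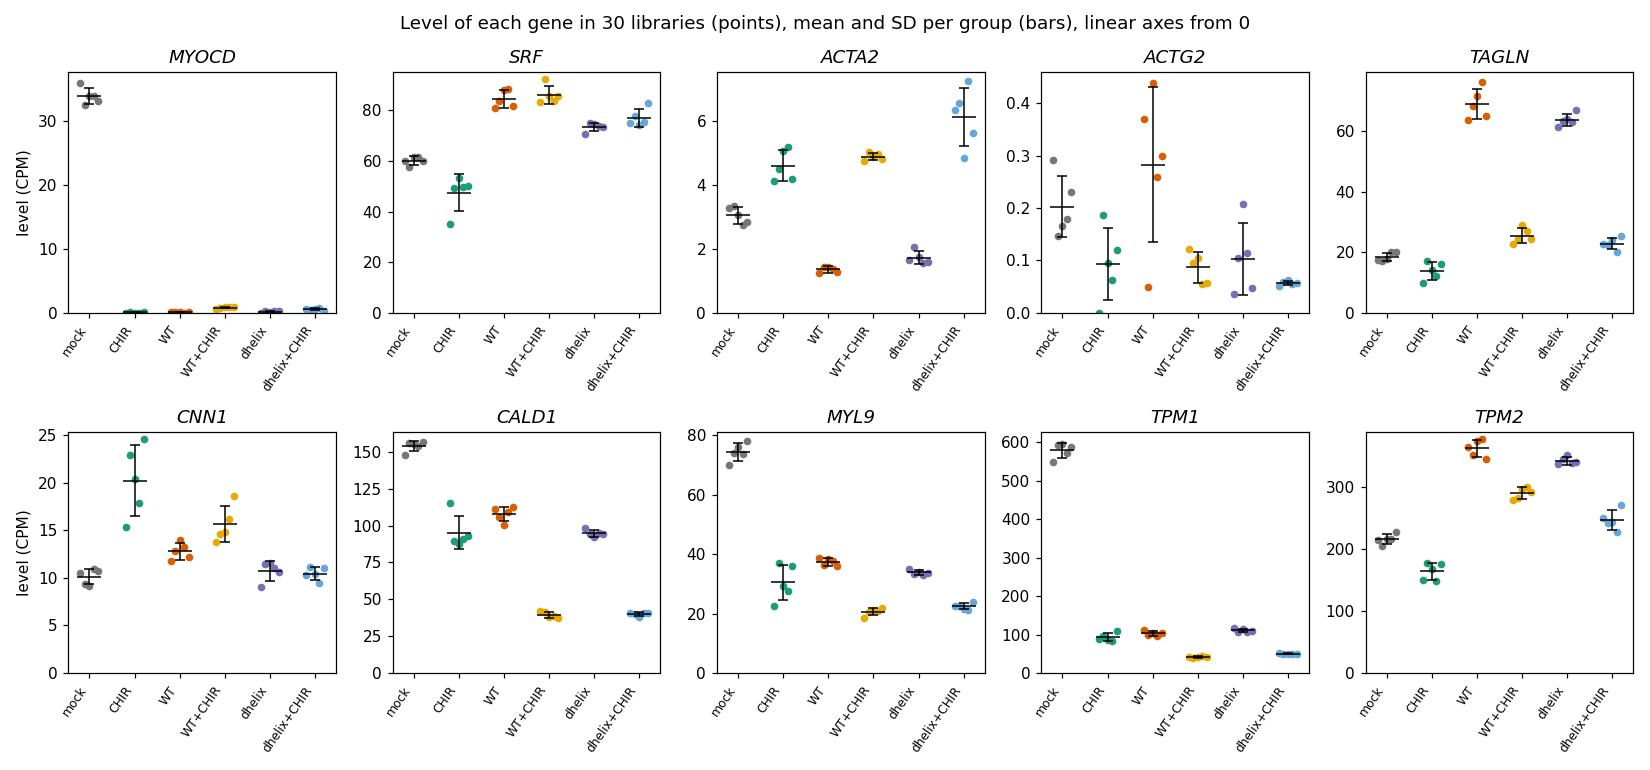
Level in CPM (vertical axes, linear from 0) of each of the 10 genes in 30 libraries, by group. Points are libraries and bars are the mean ± SD of 5 libraries. MYOCD and TPM1 are highest in mock cells, TAGLN, TPM2 and SRF are high in the FOXP2 groups, and CNN1 is highest with CHIR alone.

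Ranked by group mean, some neighbouring groups overlapped and some did not. For SRF the 4 groups with FOXP2 came first, each overlapping the next, and stood apart from mock, which stood apart from CHIR. For ACTA2 the 3 groups with CHIR overlapped at the top, and mock, dhelix FOXP2 and wild-type FOXP2 followed without overlap. For TAGLN the order was the 2 FOXP2 forms without CHIR, then both with CHIR, then mock, then CHIR alone, with overlap only between the 2 forms of FOXP2. For CALD1 and MYL9 mock was at the top and both combinations, which overlapped each other, at the bottom. For TPM2 the 2 FOXP2 forms without CHIR led and every later step, through wild-type and then dhelix FOXP2 with CHIR, mock and CHIR alone, was free of overlap. For CNN1 the step from wild-type FOXP2 to dhelix FOXP2 was the one step between neighbours without overlap.

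Per kilobase of annotated exon, the order of the genes in mock cells was led by TPM2 at 66.3 CPM per kb, with TPM1 next at 45.0. The length joins all annotated exons of a gene over all its transcripts, 12.9 kb for TPM1 and 3.25 kb for TPM2. Ranks between genes depend on this choice of length. By CPM alone, TPM1 was above TPM2 in mock cells (580 against 215). MYL9 (26.4), CALD1 (15.6), SRF (14.3), TAGLN (4.71), MYOCD (3.82), CNN1 (3.51) and ACTA2 (1.02) followed, and ACTG2 was last at 0.0532 CPM per kb. With wild-type FOXP2, TPM1 stood in the sixth place at 8.02 CPM per kb and TAGLN in the third at 17.6 CPM per kb, against the second and the sixth in mock cells. TPM2 kept the first place at 112 CPM per kb.

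Counted over the set, 2 members rose and 7 fell with CHIR (ACTA2 and CNN1 were higher), where 74.1% of all genes tested passed the threshold (38.8% higher and 35.3% lower). Their median change was −0.42, against 0.02 over all genes tested. With wild-type FOXP2, 4 rose (SRF, TAGLN, CNN1 and TPM2) and 5 fell, where 81.6% of all genes passed (39.9% higher and 41.6% lower), with a median of −0.51 against −0.02. With dhelix FOXP2, 3 rose and 5 fell, and CNN1 missed the threshold, where 80.5% passed (39.6% higher and 40.9% lower). The medians were −0.70 and −0.02. In each of these comparisons most genes of the transcriptome passed, so the number of members that passed is close to the background and says little on its own. MYOCD and TPM1 had the largest decreases of the members in all 3 comparisons, and TAGLN the largest increase with either FOXP2 form.

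When FOXP2 was added to cells already given CHIR, 4 of the 9 rose and 4 fell with the wild-type form, where 78.4% of all genes passed (38.2% higher and 40.2% lower). MYOCD, SRF (0.86 ± 0.06), TAGLN (0.89 ± 0.09) and TPM2 (0.82 ± 0.04) were higher, and CALD1 (−1.27 ± 0.05), TPM1 (−1.15 ± 0.05), MYL9 (−0.56 ± 0.08) and CNN1 (−0.38 ± 0.09) were lower. ACTA2 missed the threshold (0.08 ± 0.10, edgeR adjusted p = 0.43). With dhelix FOXP2 on CHIR, 5 rose and 4 fell, where 75.9% passed (37.0% higher and 38.9% lower), and ACTA2 was the additional gene that rose (0.42 ± 0.09, adjusted p = 0.00014), although its libraries overlapped those of CHIR alone. When CHIR was added to cells with wild-type FOXP2, 3 rose (MYOCD, ACTA2 and CNN1) and 5 fell, where 64.9% passed (34.8% higher and 30.2% lower). CNN1 in that comparison changed by 0.28 ± 0.09 (adjusted p = 0.0087), its libraries overlapped, and without wild-type FOXP2 with CHIR replicate 5 it missed the threshold (adjusted p = 0.058). When CHIR was added to cells with dhelix FOXP2, 2 rose (MYOCD and ACTA2) and 5 fell, where 63.2% passed (34.1% higher and 29.1% lower).

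**Figure D3:**
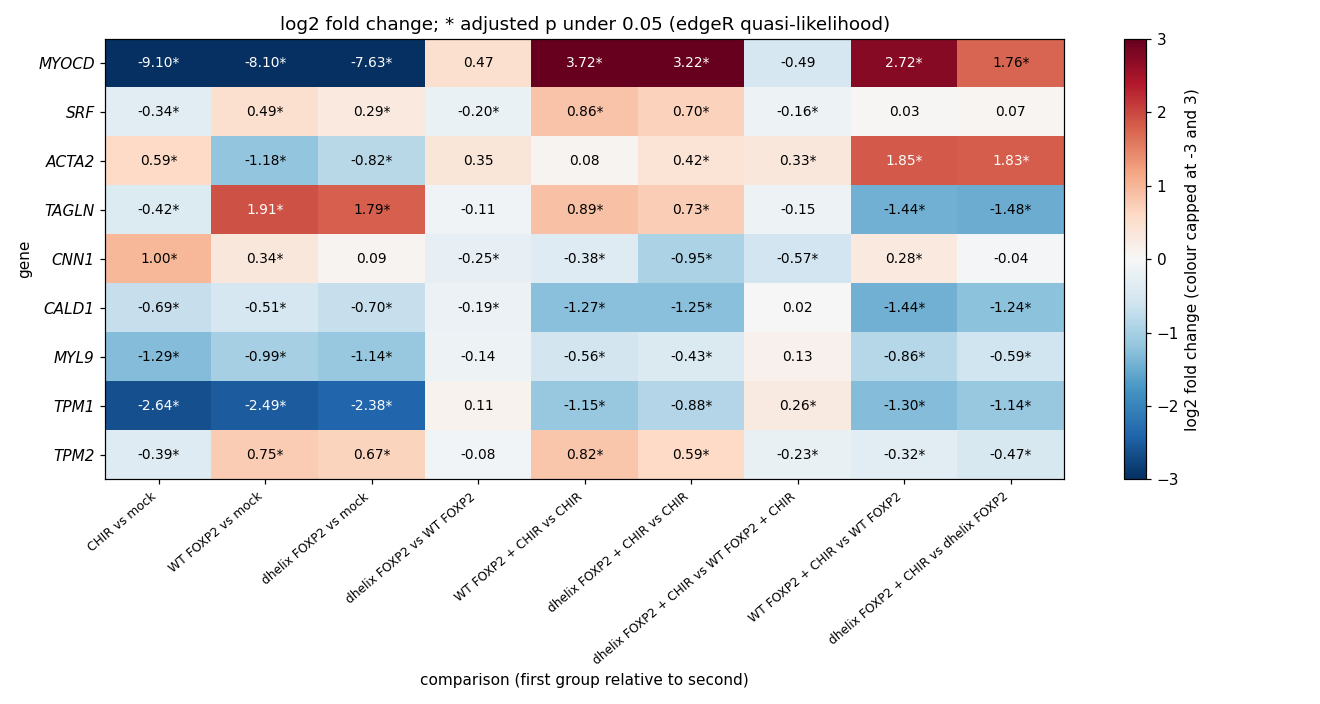
Log2 fold changes of the 9 tested genes (rows) in the 9 comparisons between pairs of groups (columns), as colour capped at 3 in either direction, with a star for an adjusted p under 0.05. MYOCD and TPM1 are lower in the 3 comparisons with mock cells, and TAGLN is higher with FOXP2 and lower when CHIR is added to FOXP2.

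The dhelix form was compared with wild-type FOXP2, the question being what residues 264 to 272 contribute. Without CHIR, 0 members were higher and 3 lower, where 35.6% of all genes passed (16.9% higher and 18.7% lower): SRF (−0.20 ± 0.06, edgeR adjusted p = 0.0062), CALD1 (−0.19 ± 0.05, adjusted p = 0.0027) and CNN1 (−0.25 ± 0.09, adjusted p = 0.036). The CNN1 call was lost on leaving out dhelix FOXP2 replicate 1 or 5 or wild-type FOXP2 replicate 2, 3 or 4 (adjusted p = 0.057 to 0.13). ACTA2 (0.35 ± 0.13, adjusted p = 0.057) and TPM1 (0.11 ± 0.05, adjusted p = 0.079) missed the threshold, as did MYOCD, TAGLN, MYL9 and TPM2. With CHIR, 2 members were higher and 3 lower with dhelix FOXP2, where 30.6% of all genes passed (16.6% higher and 13.9% lower). CNN1 was lower by a change of −0.57 ± 0.10 (adjusted p = 2e-05) and TPM2 by −0.23 ± 0.04 (adjusted p = 7.1e-05). TPM1 was higher by 0.26 ± 0.05 (adjusted p = 0.00019) and ACTA2 by 0.33 ± 0.09 (adjusted p = 0.0047), the latter with libraries that overlapped. SRF was lower (−0.16 ± 0.06, adjusted p = 0.035), a call that was lost without dhelix FOXP2 with CHIR replicate 1 or replicate 3 or without wild-type FOXP2 with CHIR replicate 2 (adjusted p = 0.064 to 0.081). FOXP2 itself was at 4655 to 6359 CPM in the dhelix libraries and at 5906 to 7806 CPM in the wild-type ones, and the part of this difference in the results was not tested.

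Whether the change with FOXP2 differed with and without CHIR was tested as an interaction. This is the log2 change with FOXP2 in CHIR-treated cells minus that in cells without CHIR. The FOXP2 transcript averaged 7076 CPM without and 15299 CPM with CHIR for the wild-type form. For dhelix FOXP2 it averaged 5319 and 13481 CPM. A different action of FOXP2 and a different amount of it therefore cannot be told apart. For wild-type FOXP2, 5 members had a positive and 3 a negative interaction, where 65.6% of all genes passed (30.7% positive and 34.9% negative). The counts were the same for dhelix FOXP2, where 64.8% passed (31.2% positive and 33.7% negative). TPM2 missed the threshold in both (edgeR adjusted p = 0.31 and 0.27). For TPM1 the interaction was 1.34 ± 0.07 with wild-type FOXP2 (adjusted p = 6e-19): the product of the separate changes would have put it at 16.6 CPM, and 42.0 CPM was measured. For TAGLN it was −1.02 ± 0.12 (adjusted p = 7e-09), with 51.6 CPM as the product of the separate changes and 25.5 CPM measured. For ACTA2 it was 1.26 ± 0.16 (adjusted p = 9.1e-09), with 2.04 CPM as the product and 4.87 CPM measured. CALD1 fell further than the product (−0.75 ± 0.07, adjusted p = 1.6e-11), to 39.5 CPM from a product of 66.6 CPM. For MYOCD the interaction of 11.82 ± 0.44 has no size that can be read as expression, since the product of the separate changes is 0.000201 CPM, or 0.00385 counts in a library of median depth. The helix deletion changed the response to CHIR in 0 of the 9 members by edgeR, where 14.2% of all genes passed (8.93% positive and 5.29% negative). The same count was 0 with DESeq2. In edgeR, 5 members (CNN1, CALD1, MYL9, TPM1 and TPM2) had an unadjusted p under 0.05. The share of all genes under that limit was not counted, so this number says little on its own. When the fit held only the 4 groups compared, 4 members passed (CNN1, CALD1, MYL9 and TPM2), where 4274 of the 18485 genes passed.

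**Figure D4:**
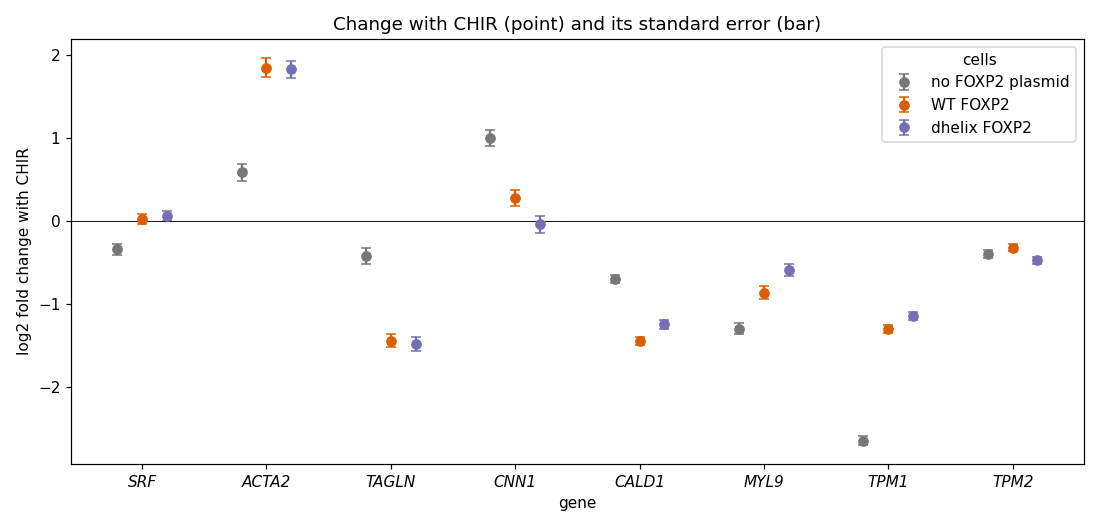
Log2 fold change with CHIR (vertical axis; error bars are SE from the fit) for 8 genes in cells without a FOXP2 plasmid, with wild-type FOXP2 and with dhelix FOXP2. ACTA2 rises more and TAGLN falls more with either FOXP2 form than without, while TPM1 falls less.

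Patterns across the 6 groups were compared among members by the root mean square difference of their centred group means of log2 CPM, where 0 is the same pattern. The closest members were SRF and TPM2 at 0.19, then CALD1 and MYL9 at 0.32. MYOCD was far from every other member, with TPM1 nearest at 1.97 and TAGLN farthest at 3.07. The patterns were not scaled, so this distance holds the size of the changes as well as their shape. From highest to lowest group mean, MYOCD spanned 600-fold and TPM1 13.8-fold, and both were highest in mock cells. Outside the set, among 15143 genes with a mean of at least 1 CPM, the 5 genes nearest to MYOCD were BMF (0.56), GALNT15 (0.85), FOXS1 (0.88), HTR2A (0.96) and NWD1 (1.01). BMF, which encodes a protein that promotes apoptosis, averaged 47.0 CPM in mock cells and 0.361 to 1.29 CPM elsewhere, and GALNT15, an enzyme of O-glycosylation, 25.6 CPM and 0.0806 to 0.164 CPM. High expression in mock cells alone was thus shared with other genes. The 5 nearest to TAGLN were EXT1 (0.085), CNRIP1 (0.10), OSCAR (0.13), ABI3 (0.15) and TMEM154 (0.15). The gene nearest to TPM1 was LOXL1 (0.11), a crosslinker of elastin, which averaged 133 CPM in mock cells, 19.6 CPM with CHIR and 23.2 CPM with wild-type FOXP2.

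The wider circuit was described from lists that were chosen with earlier results of these data known. Their counts stand against the shares of all genes tested: 38.8% higher and 35.3% lower with CHIR, 39.9% and 41.6% with wild-type FOXP2, 38.2% and 40.2% when wild-type FOXP2 was added to CHIR, and 34.8% and 30.2% when CHIR was added to wild-type FOXP2. Of 13 myocardin family genes and SRF cofactors, MYOCD and SRF among them, 2 rose and 8 fell with CHIR (median −0.21), and 5 rose and 8 fell with wild-type FOXP2 (median −0.35). MKL2, a relative of myocardin that responds to actin, averaged 118 CPM in mock cells and fell by 1.37 ± 0.05 with wild-type FOXP2. CSRP2, a LIM cofactor of SRF, fell by 1.41 ± 0.05, and its relative CSRP1 rose by 1.14 ± 0.04. MKL1, the other relative, ran from 47.1 to 69.5 CPM over the group means. The lowest group mean of MKL2 was 37.8 CPM, so both relatives of myocardin were expressed in the groups in which MYOCD was near 0. FHL2, a LIM cofactor of SRF, rose by 0.90 ± 0.03 with CHIR.

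Of 12 immediate early targets that SRF shares with the ternary complex factors, 9 rose and 2 fell with wild-type FOXP2, where 39.9% of all genes were higher and 41.6% lower (median 1.55 against −0.02 over all genes). All 12 rose when wild-type FOXP2 was added to CHIR, where 38.2% were higher (median 1.96). EGR1 averaged 99.4 CPM in mock cells and 657 CPM with wild-type FOXP2 (2.72 ± 0.08), and FOSB rose by 4.64 ± 0.15. With CHIR alone 4 of the 12 rose and 8 fell (median −0.83), among them EGR2 (−2.14 ± 0.16), while ATF3 rose by 2.12 ± 0.05. With dhelix in place of wild-type FOXP2, 0 of the 12 rose and 9 fell, where 16.9% of all genes were higher and 18.7% lower (median −0.37). Of 16 tested cytoskeletal genes that respond to the MKL proteins, 13 rose and 2 fell with wild-type FOXP2, where 81.6% of all genes passed (median 0.43). When CHIR was added to it, 1 rose and 12 fell, where 64.9% of all genes passed (median −0.54). CTGF, a matricellular protein that is also a target of YAP, averaged 185 CPM in mock cells, 19.5 CPM with CHIR, 674 CPM with wild-type FOXP2 and 92.6 CPM with both, and CYR61 rose by 2.38 ± 0.04 with wild-type FOXP2 and fell by 2.59 ± 0.04 when CHIR was added.

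Of 17 tested further smooth muscle genes, 4 rose and 11 fell with CHIR, where 38.8% of all genes were higher and 35.3% lower (median −0.52). With wild-type FOXP2, 2 rose and 11 fell, where 39.9% were higher and 41.6% lower (median −0.68). SMTN rose by 1.23 ± 0.07 with wild-type FOXP2, from 133 to 312 CPM. With CHIR, the integrin gene ITGA8 rose by 3.12 ± 0.24 and PDLIM3, which encodes a PDZ and LIM protein of the Z-disc, by 1.89 ± 0.07. JPH2, which ties the membrane to the calcium store, fell by 2.34 ± 0.19 with CHIR, and NEXN, an actin-binding protein of the Z-disc, by 1.64 ± 0.10. With wild-type FOXP2, ITGA8 fell by 3.11 ± 0.55. LMOD1, an actin nucleator of smooth muscle, averaged 1.11 CPM in mock cells and at most 0.154 CPM elsewhere. Of 17 tested other actins, tropomyosins, calponins and transgelins, 10 rose and 5 fell with wild-type FOXP2 (median 0.27), with TAGLN3, a neuronal relative of TAGLN, higher by 6.07 ± 0.30. When CHIR was added to it, 1 rose (TAGLN3, 1.48 ± 0.11) and 13 fell (median −0.26), among them TPM4 (−0.89 ± 0.03). Of 17 tested factors that act with or against myocardin, 6 rose and 8 fell with CHIR, where 74.1% of all genes passed, and the counts were the same with wild-type FOXP2, where 81.6% passed. FOXO4, a forkhead factor, fell in both (−1.73 ± 0.08 and −0.97 ± 0.07), and the zinc finger factor KLF5 rose in both (1.63 ± 0.06 and 1.29 ± 0.06).

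Sums of markers of other cell types also differed between the groups. Counts of markers that passed stand against the shares of all genes tested. These were 38.8% higher and 35.3% lower with CHIR, 39.9% and 41.6% with wild-type FOXP2, and 39.6% and 40.9% with dhelix FOXP2. The sum of 10 osteoblast lineage markers was 3306 to 3468 CPM in mock cells and 1323 to 1750 CPM with CHIR. It was 1109 to 1204 CPM with wild-type FOXP2 and 772 to 818 CPM with both. SPARC and COL1A1 made up most of it, averaging 1068 and 398 CPM over all 30 libraries. Of the 6 markers tested, 1 rose and 4 fell with CHIR, and 3 rose and 3 fell with wild-type FOXP2. RUNX2 was the one that rose with CHIR (0.89 ± 0.05). The sum of 20 cardiac and skeletal muscle markers was 27.6 to 32.0 CPM in mock cells and 8.21 to 17.6 CPM in the other groups. Of the 20, 17 were under 1 CPM in mock cells and 15 to 18 in the other groups. The 9 tested did not all follow the sum. With CHIR 1 rose and 5 fell, with wild-type FOXP2 4 rose and 2 fell, and with dhelix FOXP2 5 rose and 2 fell. Epithelial markers (7 genes) summed to 387 to 431 CPM in mock cells and 651 to 687 CPM with wild-type FOXP2, where 3 of them rose and 4 fell. KRT18 rose by 1.50 ± 0.04, from 170 to 481 CPM, and KRT14 fell by 6.63 ± 0.12. Of the markers of blood and vessels, HBB had no counts. The 5 endothelial markers summed to 6.86 to 9.06 CPM in mock cells, 3.08 to 4.46 CPM with CHIR and 3.57 to 4.44 CPM with wild-type FOXP2. Their sum was 8.70 to 10.8 CPM with dhelix FOXP2 and 17.8 to 26.1 CPM with wild-type FOXP2 and CHIR. It was 40.5 to 49.0 CPM with dhelix FOXP2 and CHIR, nearly all of it VWF, with 4 of the 5 under 1 CPM. Of the 4 tested, 0 rose and 4 fell with CHIR, and 1 rose and 3 fell with wild-type FOXP2. The 6 blood cell markers summed to 0.343 to 0.715 CPM in mock cells, 2.26 to 2.98 CPM with CHIR, 12.6 to 13.9 CPM with wild-type FOXP2 and 18.1 to 20.1 CPM with both. Only 3 of these 6 were tested, of which 2 rose and 1 fell with wild-type FOXP2. Those that rose were ITGAM (6.41 ± 0.18) and CD3D (4.85 ± 0.30). The part of these shifts in the members' results was not tested.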

How the data were processed

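RNA-seq was run on 30 libraries of U2OS cells, 5 in each of 6 groups, with a kit that marks strand. The authors deposited raw counts per gene. Per the submitters' processing notes, STAR 2.6.1a, featureCounts of the Subread package, DESeq2 and the build hg19 were used. For the annotation and the strand setting of the counting, the sources used here name nothing.

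The counts were fitted with edgeR 4.0.16 in R 4.3.3: quasi-likelihood, robust, TMM scaling, filterByExpr over the 6 groups, 1 mean per group and all 30 libraries in 1 fit. The threshold was an adjusted p (Benjamini-Hochberg) of 0.05 over the 18485 genes that passed the filter, which held 99.9% of counts. The common biological coefficient of variation was 5.62%. SEs were derived from the F statistic. P-values measure the spread between the libraries of a group, which the labels call biological replicates. No pair of libraries agreed within sampling noise (lowest chi-square per gene 1.39). Intervals of count ratios are exact, at 95%, and cover counting error only. The fit was tested on simulated data first.

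The members and lists were chosen with earlier results of these data known. The result of 1 list is not reported here. All 10 members are named in the text. Genes named from a list are among its 4 largest changes in that comparison, over the genes that passed and averaged 1 CPM or more, and not all of these are named. Defining markers (MYH11, LMOD1, HBB) and MKL1 are given by level. Likeness of pattern used log2 CPM with a prior count of 2. Exon lengths and overlaps come from GENCODE 29, and promoters from RefSeq on GRCh38.p14, which are not of the files' build, so no coordinates of the files are given. Alternatives were other scaling, no filter or a mean of at least 1 CPM, DESeq2 1.42.0, the compared groups alone, FOXP2 left out of the scaling, a replicate block and each library left out, and, added after the data were seen, removal of the 3 libraries that stood apart.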

Additional observations from a re-analysis of the deposited data

Results flagged for a closer look

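In 60 groups of 5 libraries, 4 single libraries lay further from the rest than Dixon's 95% limit allows, where chance gives about 1 group in 20. SRF was at 35.0 CPM in CHIR replicate 1, with the nearest other library at 49.4 CPM, and CALD1 was at 115 CPM in the same library, with the nearest at 93.0 CPM. SRF was at 92.4 CPM in wild-type FOXP2 with CHIR replicate 2, and CALD1 at 37.9 CPM in dhelix FOXP2 with CHIR replicate 3. CHIR replicate 1 was also the lowest of its group for ACTA2, TAGLN, CNN1 and MYL9.

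The change with FOXP2 differed between cells with and without CHIR for 8 of the 9 members tested, by the interaction in edgeR. Of all genes tested, 65.6% passed for wild-type and 64.8% for dhelix FOXP2. For wild-type FOXP2 the interactions that passed, on the log2 scale, were 11.82 for MYOCD, 0.37 for SRF, 1.26 for ACTA2, −1.02 for TAGLN, −0.72 for CNN1, −0.75 for CALD1, 0.43 for MYL9 and 1.34 for TPM1. For dhelix FOXP2 they were 10.85 for MYOCD, 0.41 for SRF, 1.24 for ACTA2, −1.06 for TAGLN, −1.04 for CNN1, −0.55 for CALD1, 0.70 for MYL9 and 1.50 for TPM1. The values for MYOCD have no size that can be read as expression, since the product of its separate changes is far under 1 count per library.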

How the results depend on the processing

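No member changed direction under an alternative where its change had passed, and of 2214 values of single members under alternatives, 2172 kept their side of the threshold, 31 newly passed and 11 no longer passed. The helix deletion's effect on the response to CHIR varied most, from 0 members called in the main fit. It went to 1 with the replicate block (CALD1), 2 with no filter (CNN1 and TPM2) and 1 with a mean of at least 1 CPM (TPM2). With only the compared groups in the fit it was 4, where 4274 genes passed against 2627. It was 4 without the 3 libraries that stood apart, and 0 to 2 with 1 library left out. Of all genes, 659 were positive and 1510 negative of 39995 with no filter. With a mean of at least 1 CPM, 1347 were positive and 1269 negative of 15160. Apart from the fit of the compared groups, the number of all genes that passed moved by at most 1.5 times. For dhelix against wild-type FOXP2, 3 members became 5 with a mean of at least 1 CPM, 7 with only the compared groups, and 6 without the 3 libraries. The count stayed between 2 and 4 with 1 library left out. Of all genes, 35.6% passed in the main fit of this comparison, and their number moved by at most 1.5 times under each alternative. The cause of these shifts in the counts of members was not tested. Over all genes, the share of calls that were higher went from 47.4% to 62.9% in dhelix against wild-type FOXP2 without the filter, and from 62.8% to 30.4% in the helix deletion's interaction (51.5% with a mean of at least 1 CPM). ACTA2 in dhelix against wild-type FOXP2 with CHIR, and CNN1 without CHIR, each missed the threshold with no filter (both adjusted p = 0.051). TPM2 passed in the wild-type interaction with a mean of at least 1 CPM (adjusted p = 0.027). Replicate numbers did not pair the samples: of 75 pairs, 8 correlated over 0.1 (r from −0.16 to 0.25), and in 19 of the 75 the own number gave the highest correlation. The replicate block moved no other count of members by over 1.5 times. Counts of 0 to 17 per library outside mock limit MYOCD, whose change with CHIR ran from −9.50 (without CHIR replicate 2) to −8.88 (without CHIR replicate 4), and counts of 0 to 8 limit ACTG2. Without the filter, ACTG2 passed in dhelix against wild-type FOXP2 (−1.30, adjusted p = 0.047) and when CHIR was added to wild-type FOXP2 (−1.58, adjusted p = 0.012).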

Other observations

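MYOCD was one of 11 genes, of 18485 tested, that averaged at least 10 CPM in mock cells and under 1 CPM in each of the other 5 groups. The same limits were met by 5 genes for CHIR alone (ABHD12B, DSC1, FGF20, FGL2 and RGPD3, the last of a family of near-identical copies) and by 0 genes for each group with FOXP2. Each FOXP2 group was set against, among others, the other FOXP2 form at the same CHIR state. Mock cells and CHIR alone had no such counterpart, so the 0 is not comparable with their counts. The reverse was seen for 7 genes, under 1 CPM in mock cells and at least 10 CPM in each other group. These limits were chosen after the values of MYOCD were seen. By the ratio of the mock mean to the highest other group mean, 41.2 for MYOCD, it ranked 21 of 18485. Expression limited to the mock cells was thus rare among the genes tested but not particular to MYOCD.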
